A study of Mus musculus with 4 samples.

Results

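Deletions of 20 bp or more that were joined with 0 or 1 bp of microhomology were examined at 2 Cas9 cut sites in mouse embryonic stem cells (mESCs). An allele was counted when its alignment to the amplicon had a single internal deletion of at least 20 bp, no inserted base, no mismatch closer than 10 bp to the deletion, and contact with the predicted cut in at least 1 of its equivalent placements. Microhomology is the run of identical bases that abuts both ends of a deletion, and at most 1 such base was allowed. These criteria gave 1055 distinct deletions, 761 at Site 7 and 294 at Site 9, of 1823 distinct single deletions in the series (57.9%). They held 65772 of 1636791 aligned reads (4.02%) and 6.40% of the reads with a single deletion.

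All libraries came from pools of E14 mESCs, a male line of strain 129/Ola, which were lipofected with a plasmid that carried Cas9 nuclease and 1 sgRNA and then selected with puromycin or for GFP. Site 7 (chromosome 16) and Site 9 (chromosome 6) each had 2 replicate libraries of PCR-amplified genomic DNA. No label says whether the replicates came from separate transfections, so the spread between them may be partly technical. Untreated cells were not analysed here, and each library held between 380601 and 447620 aligned reads.

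Cas9 cuts both strands 3 bp from the PAM, the short motif beside the sequence that the sgRNA recognises. Cells rejoin such ends mainly by non-homologous end joining, which needs little or no shared sequence, or by microhomology-mediated end joining, which pairs short repeats exposed when the ends are resected and loses the DNA between them. A deletion of this size without a repeat at its ends has lost bases on 1 or both sides of the break before joining. How far the loss ran on each side is called the reach here, counted in deleted bases from the cut in the leftmost placement of the deletion.

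At Site 7 the cut fell between 92520184 and 92520185 of chromosome 16 (mm9), in an intron of Clic6 by the annotation, although the paper assigns the site to the Runx1 locus. Clic6 is a chloride intracellular channel gene on the plus strand that spans 92485981 to 92541488. The nearest exon of Clic6 is 8120 bp away. The protospacer lies on the minus strand, so the PAM side of the cut has the lower coordinates. The reference around the cut, chr16:92520135-92520234 on the plus strand, is shown first with the protospacer in capitals. Deletions on which the results turn, among them 5 of the 6 most abundant, the leading centred one and the leading one-sided one on each side, follow as 18 retained bases from before and from after the junction, with the 1 shared base, or the 2 bases joined where none is shared, in capitals.
Site 7 reference: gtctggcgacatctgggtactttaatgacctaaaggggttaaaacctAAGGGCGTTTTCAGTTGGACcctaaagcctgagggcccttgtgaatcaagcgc
20 bp deletion, chr16:92520172-92520191: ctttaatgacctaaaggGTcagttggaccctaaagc
25 bp deletion, chr16:92520160-92520184: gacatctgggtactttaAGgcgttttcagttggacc
26 bp deletion, chr16:92520159-92520184: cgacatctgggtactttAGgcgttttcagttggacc
23 bp deletion, chr16:92520177-92520199: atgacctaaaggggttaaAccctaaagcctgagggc
24 bp deletion, chr16:92520165-92520188: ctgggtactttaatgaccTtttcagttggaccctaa
24 bp deletion, chr16:92520171-92520194: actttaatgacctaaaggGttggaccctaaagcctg
28 bp deletion, chr16:92520184-92520211: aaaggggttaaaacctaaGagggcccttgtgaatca

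At Site 9 the cut fell between 92370121 and 92370122 of chromosome 6 (mm9), in an intron of Prickle2, a planar cell polarity gene on the minus strand that spans 92320886 to 92656139. The protospacer lies on the plus strand, so here the PAM side has the higher coordinates. That side also holds a coding exon, which begins after 15 intron bases at 92370137 and ends at 92370340. Because Prickle2 is read from the minus strand, these intron bases hold the splice donor of the exon, and its first 2 bases are AC on the plus strand at 92370135 and 92370136. The sequences, again with 5 of the 6 most abundant and the leading centred and one-sided deletions, follow the reference at chr6:92370072-92370171.
Site 9 reference: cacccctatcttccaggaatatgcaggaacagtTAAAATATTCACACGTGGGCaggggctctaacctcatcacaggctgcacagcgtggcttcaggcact
21 bp deletion, chr6:92370112-92370132: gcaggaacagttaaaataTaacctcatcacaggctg
24 bp deletion, chr6:92370111-92370134: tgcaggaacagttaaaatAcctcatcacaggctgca
20 bp deletion, chr6:92370113-92370132: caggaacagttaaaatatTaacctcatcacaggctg
25 bp deletion, chr6:92370103-92370127: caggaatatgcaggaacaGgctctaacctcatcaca
20 bp deletion, chr6:92370103-92370122: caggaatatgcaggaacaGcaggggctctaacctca
21 bp deletion, chr6:92370120-92370140: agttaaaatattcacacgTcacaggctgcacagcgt

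These deletions were rare as reads at both sites. The first Site 7 library had 14535 such reads, or 3.66% of its aligned reads (95% Wilson interval 3.60 to 3.72%), and the second had 19756, or 4.81% (4.74 to 4.87%). The first Site 9 library had 16902, or 3.78% (3.72 to 3.83%), and the second had 14579, or 3.83% (3.77 to 3.89%). The Site 9 libraries lay between the 2 Site 7 libraries. The difference between the site means was -0.428 percentage points (exact two-sided permutation test of the libraries, p = 1), and with 2 libraries against 2 this test cannot give less than 0.333. As a share of the reads that the authors' program called modified, the order differed, with 3.79% and 4.97% at Site 7 and 5.88% and 6.37% at Site 9. The intervals cover counting error only, because PCR copies of 1 molecule could not be told from separate molecules.

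Among all single deletions of at least 20 bp at the cut, the share with little microhomology came to 31.1% and 31.0% of reads in the Site 7 libraries and 32.0% and 28.5% in those of Site 9. The site difference of -0.808 points was smaller than the SD of 2.45 points between the Site 9 replicates (exact permutation test, p = 1). Counted once each, the class had 1055 of 1262 distinct deletions (83.6%), with 86.4% at Site 7 and 77.2% at Site 9. By library it was 74.1% and 86.1% at Site 7 against 73.3% and 69.96% at Site 9, a difference of -8.45 points between the site means. The sequence itself offers mostly such junctions, since 93.8% of the possible deletions of this length at either cut have 0 or 1 bp of microhomology. Deletions with 2 bp or more of microhomology numbered only 207 but held 8.09% and 10.7% of aligned reads at Site 7 and 8.03% and 9.60% at Site 9.

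The reads of the class were spread over many junctions. The most abundant deletion supplied only 3.69% and 2.55% of the reads of the class at Site 7 and 6.24% and 5.21% at Site 9. To reach 50% of the reads took the 40 and 64 most abundant deletions at Site 7 and 29 and 30 at Site 9. In the class with 2 bp or more of microhomology 5 and 4 deletions were enough at Site 7, and 7 in each library at Site 9. The number was higher for little microhomology in 4 of 4 libraries, by 35 ± 17.7 deletions (SD, n = 4; exact sign-flip test, p = 0.125, the smallest that 4 libraries allow). The 2 classes differ in how many junctions are possible, as the 93.8% shows.

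Most distinct deletions were seen in many reads. Site 7 replicate 2 stood apart, with 722 distinct deletions against 240 in replicate 1, 211 in Site 9 replicate 1 and 170 in Site 9 replicate 2. Of its 722, 276 had 2 to 9 reads, against 9 to 20 in the other libraries, and its median was 12 reads per deletion against 42 to 65. With at least 10 reads the counts were 401, 195, 182 and 137 in the same order, and these deletions still held 92.9% of the reads of the class in Site 7 replicate 2 and 99.3 to 99.6% elsewhere. Without Site 7 replicate 2, the class had 534 of 1205 distinct single deletions (44.3%).

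The length that could be observed had a ceiling. Reads covered 89 bp below the cut and 134 bp above it at Site 7. At Site 9 the window ran 75 bp below and 122 bp above. In every library the poorest aligned read still matched 60.1 to 60.2% of the amplicon, and the longest single deletions of any kind were 75 bp at Site 7 and 72 bp at Site 9. Deletions that left less of the amplicon to match were not analysed here. The longest little-microhomology deletion measured 74 and 75 bp in the Site 7 libraries, against 71 and 70 bp in those of Site 9. The authors' program called all of their reads modified except 63 reads in Site 7 replicate 2, and the mismatch criterion had removed 7.96 to 9.96% of otherwise matching reads.

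Short members dominated. Deletions of 20 to 29 bp held 54.0% and 56.1% of the reads of the class at Site 7 and 60.3% and 57.02% at Site 9, and those of 30 to 39 bp between 21.6% and 22.3% in each library. The mean length came to 32.7 and 32.8 bp in the Site 7 libraries. It was 30.99 and 32.6 bp in those of Site 9. The site difference of -0.970 bp was within the SD of 1.15 bp between the Site 9 replicates (exact permutation test, p = 0.333). Just outside the limit, deletions of 19 bp with as little microhomology had 2646, 4294, 2115 and 1509 reads in the 4 libraries (Site 7 replicates 1 and 2, then Site 9 replicates 1 and 2), and just inside it those of exactly 20 bp had 1471, 1689, 1899 and 1099. The 20 bp deletions had fewer reads than the 19 bp ones in each library.

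The share of little-microhomology deletions among all single deletions of one length varied more between the sites than their overall share did. From 30 to 39 bp it was 23.6% and 20.5% at Site 7 but 36.8% and 35.1% at Site 9. From 50 to 59 bp the order was the opposite, with 44.9% and 39.2% at Site 7 and 19.7% and 14.9% at Site 9. The libraries of the 2 sites did not overlap in these classes. Nor did they at 20 to 29 bp (35.6% and 37.2% against 34.3% and 29.8%) or at 40 to 49 bp (26.1% and 29.4% against 40.5% and 36.4%). From 60 bp they overlapped (27.9% and 36.7% against 19.6% and 28.4%). With 2 libraries against 2, these splits were not tested further.

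**Figure D1:**
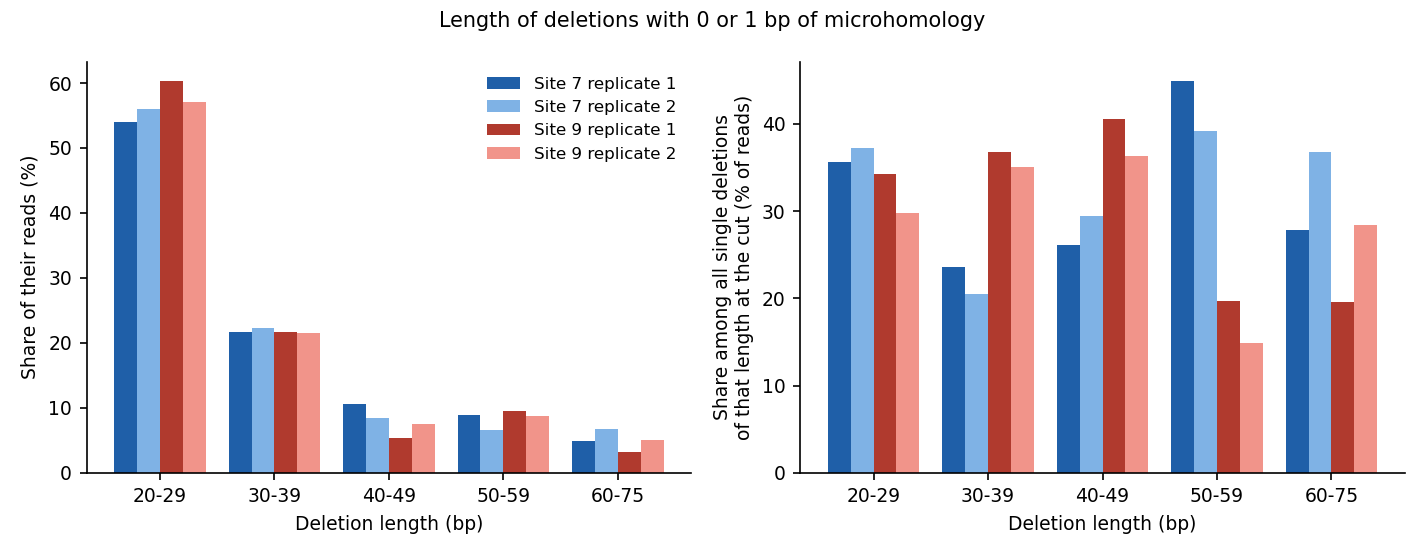
Left, the share of reads (%) of deletions with 0 or 1 bp of microhomology by length class (bp) in each of the 4 libraries. Right, their share (%) among the reads of all single deletions of that length at the cut. The left bars are highest at 20 to 29 bp, from 54.0 to 60.3%. The right bars show Site 9 higher at 30 to 39 and 40 to 49 bp, and Site 7 higher at 20 to 29 and 50 to 59 bp.

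A single shared base was more frequent at Site 9. It was present in 47.2% and 46.4% of the reads of the class at Site 7 (mean 46.8% ± 0.575, SD, n = 2) and in 60.1% and 61.3% at Site 9 (60.7% ± 0.805, SD, n = 2). The difference of 13.9 points exceeded the replicate SDs (exact permutation test, p = 0.333). The sequence offers far fewer junctions of that kind. Of the 1924 little-microhomology deletions of 20 to 75 bp that the Site 7 sequence allows at the cut, 20.5% have a shared base, and at Site 9 it is 19.4% of 1727 up to 71 bp. The shared base itself was G or C in 49.5% and 45.3% of these reads at Site 7 and 49.1% and 46.4% at Site 9. Deletions with a shared base were longer than those without one in 4 of 4 libraries, by 3.49 ± 1.61 bp on average (SD, n = 4; exact sign-flip test, p = 0.125). At Site 7 the share of possible junctions with a shared base also rose with length, from 16.4% at 20 to 29 bp to 21.3% from 50 bp. At Site 9 it was 19.2% and 20.3%, with 16.9% at 40 to 49 bp.

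The reach was uneven at Site 7 and nearly even at Site 9. At Site 7 the mean reach was 21.1 and 19.7 bp on the PAM side and 11.6 and 13.1 bp on the PAM-distal side, so the PAM side was longer in both libraries. At Site 9 it was 14.9 and 16.4 bp on the PAM side and 16.1 and 16.2 bp on the PAM-distal side, so that the difference changed sign between its libraries. That sign rests on the placement of the shared base. In the rightmost placement PAM-distal minus PAM-side reach was -0.0396 and -1.41 bp at Site 9, against 1.16 and -0.191 bp in the leftmost. PAM-distal minus PAM-side reach came to -8.08 ± 2.08 bp at Site 7 and 0.484 ± 0.954 bp at Site 9 (SD, n = 2 each). The difference of 8.56 bp between the sites exceeded the spread between replicates (exact permutation test, p = 0.333).

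Over the 4 libraries no test could pass the threshold. Mean PAM-distal minus PAM-side reach was below 0 in every setting, and so was mean higher minus lower reach. The sign in the Site 9 libraries depended on the setting. PAM-distal minus PAM-side reach averaged -3.80 ± 5.12 bp (SD, n = 4; exact sign-flip test, p = 0.375). The PAM side was the longer in 4 of 4 libraries with the rightmost placement (-3.94 bp), from 30 bp (-5.28 bp) and with the cut 1 bp further from the PAM (-4.18 bp), each with p = 0.125 in the exact sign-flip test. Read by coordinates instead, higher minus lower averaged -4.28 ± 4.58 bp (SD, n = 4; exact sign-flip test, p = 0.25). With distinct deletions counted once the lower side was the longer in 4 of 4 (-2.62 bp, exact sign-flip test, p = 0.125). There the Site 9 values were only -0.0995 and -0.153 bp, against -6.61 and -3.62 bp at Site 7. The lower coordinates are the PAM side at Site 7 and the PAM-distal side at Site 9. With 1 site on each strand, site and orientation cannot be told apart.

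**Figure D2:**
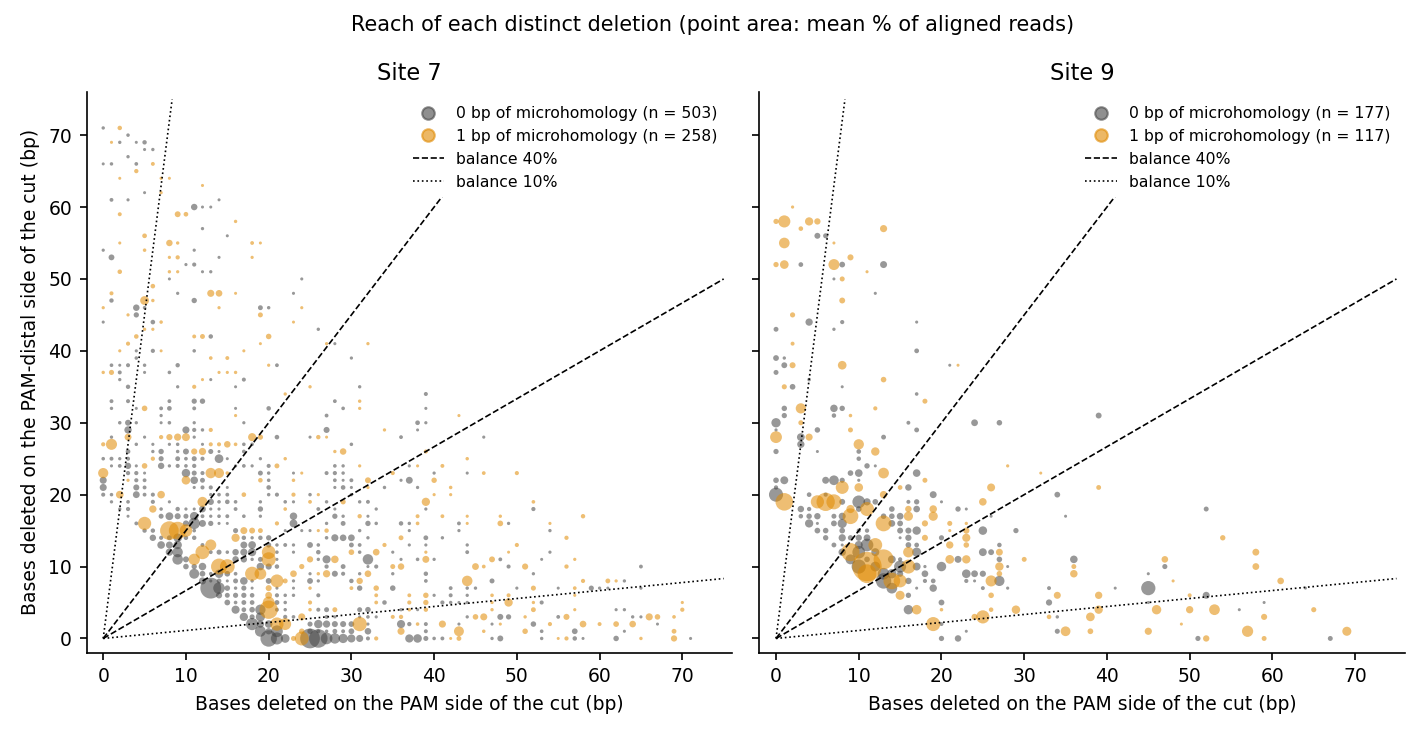
Each point is a distinct deletion, placed by the bases it removed on the PAM side (x axis, bp) and on the PAM-distal side (y axis, bp) of the cut, with area in proportion to its mean percent of aligned reads over both libraries and colour for 0 or 1 bp of microhomology. The empty corner is the 20 bp limit, the dashed lines bound a balance of 40% and the dotted lines one of 10%. At Site 7 the large points include those at 25 and 26 bp on the x axis and are scattered along the 20 bp limit, and at Site 9 the largest lies between the dashed lines at 11 bp and 10 bp.

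Base by base, the loss fell away from the cut at different rates. At Site 7 at least 50% of the reads of the class had lost the bases up to 20 and 18 bp from the cut on the PAM side, but only up to 10 and 11 bp on the PAM-distal side. At Site 9 the same limit lay at 12 and 13 bp on the PAM side and at 12 bp in both libraries on the other. Far ends were rare. At least 10% of the reads had lost the bases up to 39 and 37 bp (PAM side) and 26 and 27 bp (PAM-distal) at Site 7, and up to 34 and 36 bp and 30 bp at Site 9. The longest reach was 71 bp on either side at Site 7, and 69 bp on the PAM side and 60 bp on the PAM-distal side at Site 9.

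**Figure D3:**
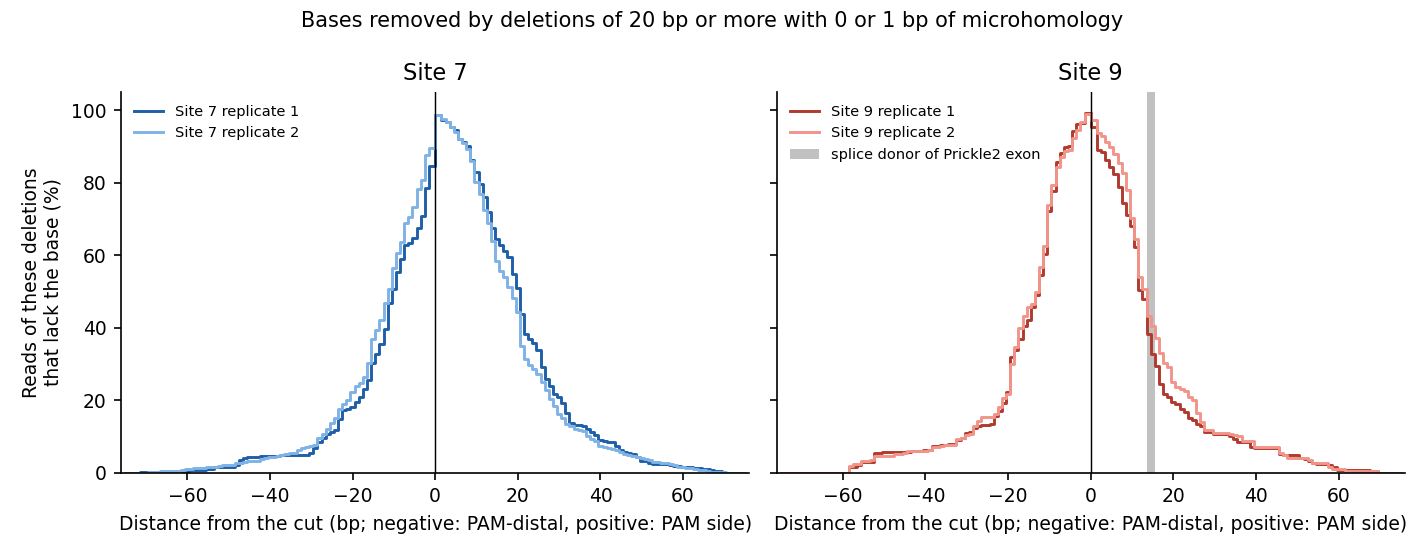
Percent of the reads of little-microhomology deletions of 20 bp or more that lack each base, against distance from the cut in bp (negative, PAM-distal; positive, PAM side), with 1 line per library and the splice donor of the Prickle2 exon shaded at Site 9. The curves of replicates run close together, and at Site 7 the PAM side is the higher at 20 bp from the cut, with 50.8% and 44.3% against 18.2% and 22.2%.

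Some deletions left 1 side of the break whole. At Site 7 the PAM-distal end was kept to its last base in 15.4% and 10.6% of the reads of the class, while the PAM-side end was kept in 1.24% and 1.29%. These deletions removed sequence from the cut through the PAM and left the rest of the protospacer in place, as in the 25 bp and 26 bp deletions printed above. At Site 9 the PAM-side end was kept in 4.55% and 2.81% and the PAM-distal end in 0.663% and 1.13%. In this leftmost placement the end with the higher coordinates was the one kept more often in each library. A deletion with a shared base also has a placement 1 bp higher, which can leave the lower end intact instead. Deletions without a shared base have only 1 placement, and they too kept the higher end more often. It was kept in 25.6% and 16.9% of their reads against 0.795% and 1.41% at Site 7. At Site 9 it was 9.66% and 3.21% against 1.13% and 1.82%. An intact end was less frequent with a shared base than without one in 4 of 4 libraries, by 11.4 ± 7.98 points (SD, n = 4; exact sign-flip test, p = 0.125), and it was more frequent in the whole class than in deletions of that length with 2 bp or more of microhomology by 5.21 ± 2.77 points in 4 of 4 (exact sign-flip test, p = 0.125). Both contrasts rest on the leftmost placement. A deletion with shared bases whose end is intact only in another placement was not counted as intact. With every placement of the same lengths equally common, an intact end would be in 7.52% and 7.36% of the reads of the class at Site 7. It was in 16.6% and 11.9%. At Site 9 equal placements would give 7.11% and 6.51%, and it was 5.21% and 3.94%. For deletions with 2 bp or more of microhomology they would give 5.56% and 4.45% at Site 7 and 5.42% and 5.90% at Site 9. The equal-placement share was thus also higher for the whole class in each library. With a shared base it would be 10.6% in both Site 7 libraries, against 7.67% and 7.05% without one. At Site 9 it would be 4.32% and 4.75% with a shared base and 7.89% and 6.64% without, the same direction as observed.

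Other ends recurred too, in both replicates. At Site 7 the outermost deleted base on the PAM side was most often 92520165, 20 bp from the cut, in 7.15% and 9.49% of the reads of the class and in 10 and 22 distinct deletions. On the PAM-distal side a reach of 2 bp followed the intact end, with 7.75% and 6.79%. At Site 9 a PAM-distal reach of 10 bp (outermost base 92370112) was found in 11.8% and 11.4% of the reads, and one of 19 bp (92370103) in 9.70% and 8.27%. On its PAM side a reach of 11 bp (92370132) was found in 11.8% and 10.6%, and one of 13 bp (92370134) in 9.69% and 7.57%. The 10 bp and 11 bp ends meet in the 21 bp deletion that was the most abundant member at Site 9, and it alone supplied 53.0% and 45.5% of the reads with the 10 bp end and 52.8% and 48.9% of those with the 11 bp end. Without it these ends held 5.54% and 6.24% and 5.59% and 5.44% of the reads of the class. The 11 bp end fell to 2.25% and 4.13% when the 20 bp deletion beside it was left out too. Without its own leading deletion, the 20 bp end at Site 7 held 5.88% and 6.96%.

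Symmetry was scored as balance, the shorter reach as a percent of the deletion length, which is 0 for a deletion on 1 side of the cut and 50 for a centred one. The mean balance was 21.5 and 24.4 in the Site 7 libraries, against 28.5 and 29.2 in those of Site 9, a difference of 5.96 between the site means that exceeded the spread between replicates (exact permutation test, p = 0.333). For comparison, if every little-microhomology placement of the same lengths were equally common, the balance would be 24.1 and 23.9 for the lengths of the Site 7 libraries and 24.3 and 24.4 for those of Site 9.

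One-sided deletions (balance under 10) made up 36.8% and 25.5% of the reads of the class at Site 7 and 20.8% and 17.7% at Site 9, where equal placements would give 23.1%, 23.2%, 22.4% and 21.96%. The site difference was -11.9 points, against an SD of 8.003 points between the Site 7 replicates (exact permutation test, p = 0.333). At Site 7 they ran mostly to the PAM side, in 30.8% and 20.5% of the reads against 5.99% and 4.92% to the PAM-distal side. At Site 9 they ran slightly more to the PAM-distal side, in 13.5% and 10.04% against 7.35% and 7.64%. Centred deletions (balance of 40 or more) made up 15.9% and 20.1% at Site 7 and 31.5% and 34.2% at Site 9, where equal placements would give 19.6%, 18.7%, 20.2% and 20.3%.

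The difference in symmetry between the sites did not keep its sign in the longer members. Restricted to deletions of 30 bp or more, the site difference in balance was -1.10 and that in the one-sided share 2.42 points, both opposite in sign to the values from 20 bp. At Site 9 the balance fell from 34.3 and 33.0 at 20 to 29 bp to 7.60 and 12.6 at 50 to 59 bp. At Site 7 it was 20.8 and 24.7 in the first of these classes and 17.2 and 23.6 in the second. In the distinct deletions counted once, the site difference in balance was 2.64.

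The deletions named here were the 6 most abundant at each site, the leading centred and one-sided ones, and the longest with at least 10 reads in each library. At Site 7 the most abundant had lost 20 bp, 13 on the PAM side and 7 on the other, without a shared base, and was found in 0.0958% of aligned reads in replicate 1 (381 reads) and 0.122% in replicate 2 (503 reads). The 25 bp and 26 bp deletions that end exactly at the cut followed a different order, with 0.135% and 0.105% in replicate 1 and 0.0608% and 0.0671% in replicate 2. Both were thus more frequent in replicate 1, whereas the other 4 of the leading 6 were more frequent in replicate 2.

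Of those 4, the 23 bp deletion reached 8 bp on the PAM side and 15 bp on the other, with a shared A, and had 0.0724% and 0.101% of aligned reads. A 24 bp deletion from 92520176 to 92520199 shares its far end and its A and had 0.0508% and 0.105%. The 24 bp deletion from 92520165 to 92520188, with a shared T, had 0.0465% and 0.122%. Its counts of 185 and 500 reads give the widest gap between replicates among the leading 6. The leading centred deletion, 24 bp from 92520171 to 92520194 with a shared G, had 0.0445% and 0.0820%. The leading PAM-distal one-sided deletion was rarer still, 28 bp from 92520184 to 92520211, with 0.0319% and 0.0265% and intervals that overlap. The longest Site 7 deletion named, of 69 bp from 92520119 to 92520187, reached 66 bp to the PAM side and had 29 and 59 reads.

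At Site 9 a single junction led the class. The 21 bp deletion from 92370112 to 92370132, with a shared T, had lost 11 bp on the PAM side and 10 bp on the other, and had 1055 reads in replicate 1, which is 0.236% of those aligned (0.222 to 0.250%), and 759 in replicate 2, which is 0.199% (0.186 to 0.214%). It was also the leading centred deletion. The next, 24 bp from 92370111 to 92370134 with a shared A, had 0.0958% and 0.104%, with overlapping intervals. The neighbouring 20 bp deletion from 92370113 to 92370132 has the same right end as the first and a shared T, and had 0.126% and 0.0502%, a gap larger than the counting error.

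The remaining leaders at Site 9 reached less evenly. The 25 bp deletion from 92370103 to 92370127 had 0.0958% and 0.0717%, and the 20 bp deletion from 92370103 to 92370122, which removed 19 bp on the PAM-distal side and 1 bp on the PAM side, had 0.0898% and 0.0638%. Both begin at the same base and share a G. The 21 bp deletion from 92370110 to 92370130 had 0.0697% and 0.0954%. The leading deletion to the PAM side, 21 bp from 92370120 to 92370140, had 35 reads in replicate 1 and 340 in replicate 2, so its rank rests on replicate 2. The longest named, 70 bp from 92370121 to 92370190, reached 69 bp into the PAM side and had 78 and 77 reads.

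**Figure D4:**
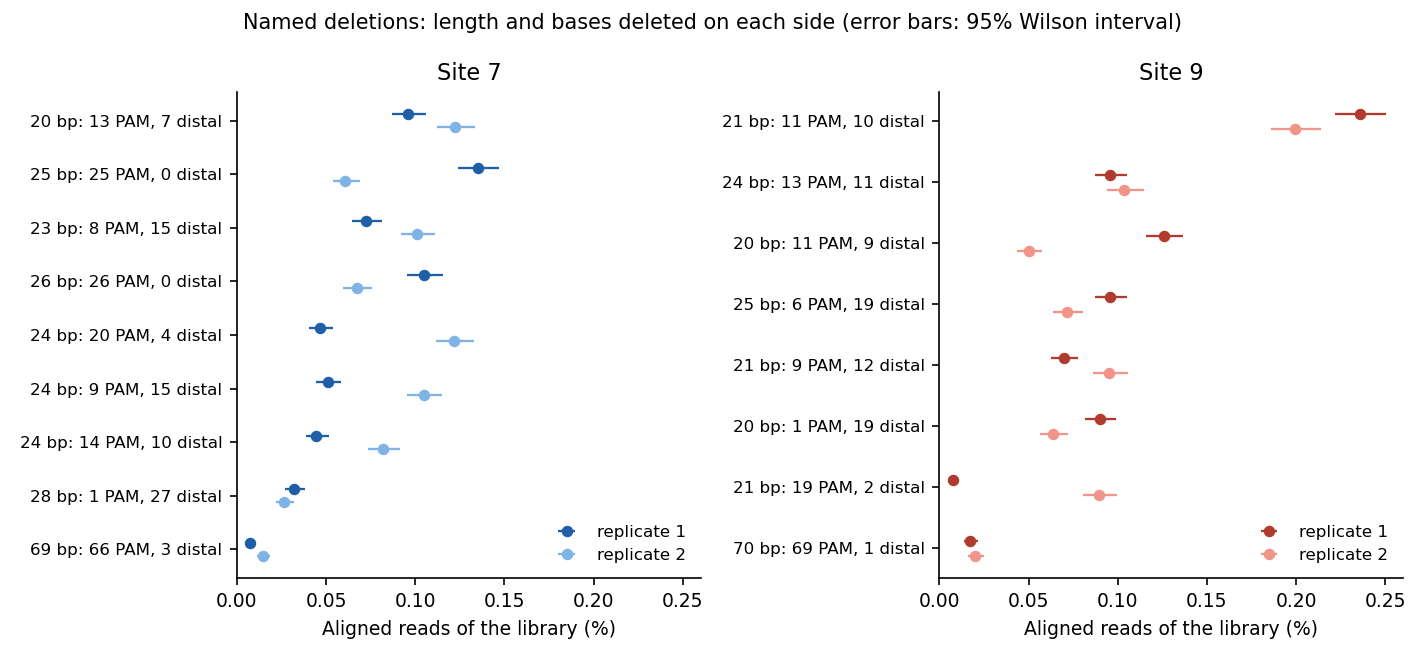
Percent of aligned reads of each named deletion in both replicates of its site, with 95% Wilson intervals as error bars, which cover counting error only. Labels give the length and the bases deleted on the PAM and PAM-distal sides. The 21 bp deletion at Site 9 stands highest at 0.236% and 0.199%, and the intervals of the replicates overlap for few of the deletions.

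Replicates shared many but not all of these deletions. At Site 7, 201 deletions were found in both, which is 83.8% of those in replicate 1 and 27.8% of the 722 in replicate 2, and they held 89.1% and 63.1% of the reads of the class. At Site 9, 87 were found in both, 41.2% and 51.2% of the lists, with 63.9% and 67.5% of the reads. Spearman's rho between the replicates' shares was 0.50 over the 201 shared deletions and 0.53 over the 87. These deletions come from the same libraries and share PCR and depth, so rho is a description.

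The part of the possible junctions that was seen declined with length in each library. Of the 189 possible little-microhomology deletions of 20 to 29 bp at Site 7, replicate 1 held 85 (44.97%) and replicate 2 held 170 (89.9%). Of the 167 at Site 9, the libraries held 81 (48.5%) and 64 (38.3%). Site 7 replicate 2 thus stood apart, and replicate 1 lay within the range of Site 9. From 50 bp the shares were 4.42% and 20.7% at Site 7 and 4.41% and 4.09% at Site 9. Over both libraries of a site, and so with Site 7 replicate 2 setting the level there, 65.5% of the junctions with a shared base were seen at Site 7 and 34.9% at Site 9, against 32.9% and 12.7% of those without. One-sided placements (43.5% and 17.4% seen) and centred ones (36.4% and 19.4%) differed less.

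Compared with deletions that had longer microhomology, the little-microhomology class was the less symmetric at Site 7 and the more symmetric at Site 9. Its balance minus that of deletions of 20 bp or more with 2 bp or more of microhomology came to -7.78 and -9.32 in the Site 7 libraries, and to 9.42 and 7.32 in those of Site 9. The mean over libraries was -0.0892 ± 9.83 (SD, n = 4; exact sign-flip test, p = 1), and the sites differed by 16.9 (exact permutation test, p = 0.333). Without Site 7 replicate 2 the mean over libraries was 2.99 and without replicate 1 it was 2.47. With equal placements the balance at Site 7 would be 28.7 and 29.6 for longer microhomology, against 24.1 and 23.9 for little microhomology. At Site 9 it would be 22.7 and 23.7, against 24.3 and 24.4. Equal placements thus give the same direction as observed at both sites. How much of the difference follows from the possible placements was not tested. The class with microhomology was centred in 35.2% and 45.7% of its reads at Site 7 but in 11.7% and 13.2% at Site 9, where 45.8% and 34.7% were one-sided. The single most abundant deletion of that class supplied 17.8% and 19.7% of its reads at Site 7 and 17.4% and 12.01% at Site 9.

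Against deletions of 3 to 19 bp with as little microhomology, the longer ones were the more balanced in 4 of 4 libraries, by 4.43 ± 1.22 (SD, n = 4; exact sign-flip test, p = 0.125). Length alone bears on this measure. With equal placements the balance would be 20.98, 21.2, 20.01 and 20.07 for the shorter lengths in the 4 libraries, against 24.1, 23.9, 24.3 and 24.4 for the longer ones. The difference was 1.397 in the rightmost placement and 1.101 from 30 bp, with 2 of 4 libraries above 0 in each (exact sign-flip test, p = 0.625). It turned to -2.16 with the cut placed 1 bp further from the PAM, and to -1.005 when a base had to be lost on both sides. Deletions of 20 bp or more with little microhomology were shorter than those with 2 bp or more of it, by 3.25 ± 1.70 bp on average in 4 of 4 libraries (exact sign-flip test, p = 0.125), and their PAM-distal reach was lower in 4 of 4 libraries, with a mean difference of -3.68 ± 1.52 bp (SD, n = 4; exact sign-flip test, p = 0.125).

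**Figure D5:**
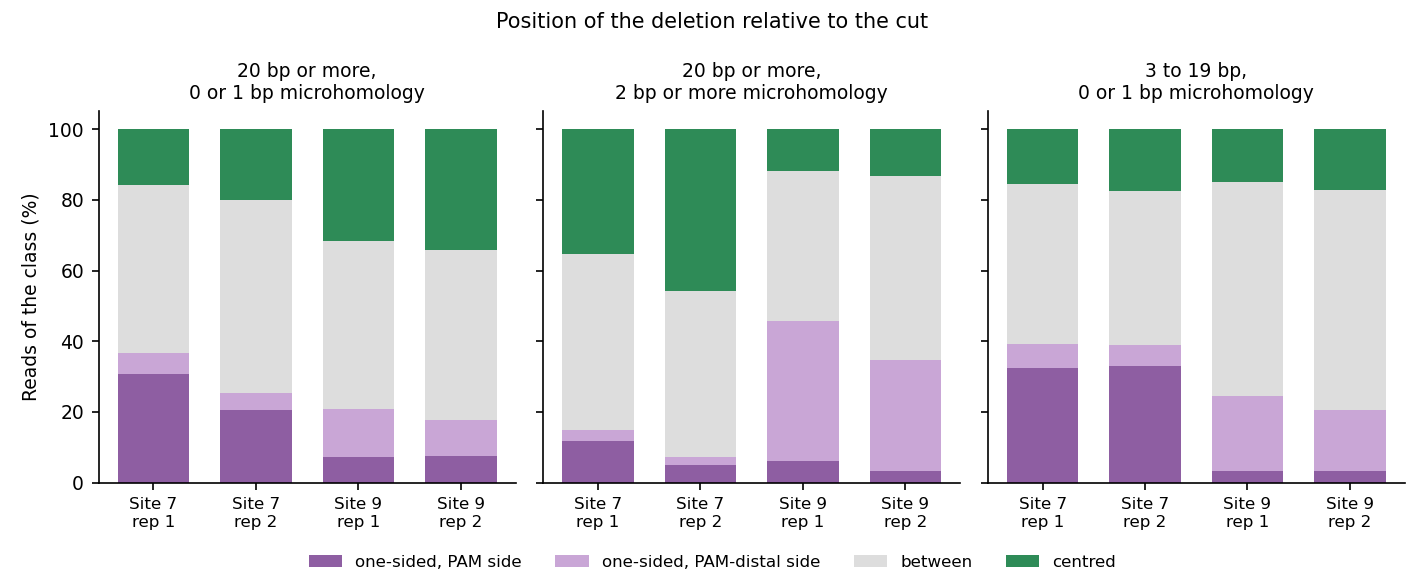
Share of reads (%) by position of the deletion relative to the cut, for 3 classes of deletions in each of the 4 libraries. One-sided has a balance under 10, split by the side of the loss, and centred has one of 40 or more, with the rest between them in grey. Centred reads are the more frequent at Site 9 in the first panel and at Site 7 in the second.

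The features lost with each deletion followed from its reach. The PAM was removed whole in 92.1% of the reads of the class in both Site 7 libraries and in 82.4% and 87.8% at Site 9. It was kept whole in 4.75% and 4.58% and in 13.6% and 8.67%. The entire protospacer was removed in 19.9% and 23.2% of the reads at Site 7 and 25.4% and 32.8% at Site 9.

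At Site 9 a PAM-side reach of 14 bp or more takes at least 1 of the splice donor bases of the Prickle2 exon, one of 15 bp or more takes both, and one of 16 bp or more takes coding bases. At least 1 donor base was lost in 38.2% of the reads of the class in replicate 1 (111 distinct deletions) and 43.2% in replicate 2 (91 distinct deletions). Both were lost in 32.9% and 40.5%, in 104 and 87 distinct deletions, with a mean of 36.7% ± 5.43 (SD, n = 2). Placing shared bases rightmost gave 35.3% and 41.8% for both bases. Coding bases were lost in 29.5% and 37.1%, and at most 54 of them. Deletions of 20 bp or more with longer microhomology had lost both in 34.1% and 43.7% of their reads in the leftmost placement, slightly more than the little-microhomology class in both libraries. For at least 1 donor base it was 34.3% and 44.3%, lower in replicate 1 and higher in replicate 2. In the rightmost placement both were lost in 42.6% and 51.7%. That placement counts more loss where more bases are shared, although an identical base still stands in the allele. The leading 21 bp deletion stopped short of the donor, while the 21 bp deletion to the PAM side and the 70 bp deletion removed it.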

How the data were processed

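Genomic DNA from pools of transfected mESCs was amplified around each target (25 cycles of PCR), indexed (6 cycles) and sequenced in read pairs. The authors trimmed the reads (Trim Galore 0.3.1 in the submitters' processing notes) and ran CRISPResso, whose settings are not given in the sources used here. The deposited count is the number of reads of each allele, without normalization, and the deposited percent is the share of the library's aligned reads. Of these, the counts were analysed.

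Alleles were classified with Python 3.11.15 and pandas 2.3.3. End gaps were ignored, deletions were set to the leftmost placement, identical bases were sought within 10 bp on each side, of which the longer run was kept, and reads of 1 deletion were added together. A deletion touched the cut if it removed a base next to it. The cut followed base 98 of the Site 7 amplicon and base 76 of the Site 9 amplicon, 3 bp from an AGG PAM, and both amplicons matched mm9 at 1 place each. The classifier was tested on simulated alleles. Shares have 95% Wilson intervals, and a share of 3 reads, the limit that a count of 0 allows, was 0.000670 to 0.000788% of a library.

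Values were computed per library and compared by exact two-sided permutation tests of libraries between sites (smallest p 0.333) and by exact sign-flip tests within libraries (smallest p 0.125), with a threshold of 0.05 that neither can reach. No p was adjusted, since none can pass. Equal placements means every possible deletion of each observed length with 0 or 1 bp of microhomology counted once, weighted by the observed lengths. For a compared class, the possible deletions of that class were used. Named deletions were, at each site, the 6 with the highest mean percent of aligned reads, the leading centred one, the leading one-sided one on each side and the longest with at least 10 reads in each library. The members, named deletions and compared classes were chosen with earlier results of these data known. Alternatives covered the unit of counting, read minimum, mismatches, length limits, microhomology, caller, placement, cut position, contact, denominator, each library left out and pairing by replicate number. The common ends without their leading deletions and the donor in the rightmost placement were added after seeing the data.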

Additional observations from a re-analysis of the deposited data

Results flagged for a closer look

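In 6 contrasts every library of 1 site moved one way and every library of the other site the opposite way. They were picked for this pattern from a larger set of within-library contrasts. Balance, one-sided share and centred share are scored from the same reaches, so they are not separate results. A difference between the sites was tested for the first contrast only. With 2 libraries against 2 the exact permutation test cannot go below 0.333. Balance relative to deletions of 20 bp or more with 2 bp or more of microhomology was lower at Site 7 and higher at Site 9, 16.9 apart (exact permutation test, p = 0.333). Equal placements of each class would also give a lower balance at Site 7 and a higher one at Site 9. The one-sided share relative to the same class was higher by 21.9 and 18.3 points at Site 7 and lower at Site 9 (-24.9 and -17.0), which puts the Site 9 mean difference -41.1 points from that of Site 7. The centred share relative to the same class was lower at Site 7 (-19.3 and -25.7 points) and higher at Site 9 (19.8 and 21.03), with 42.9 points between the means. The differences in these shares were not tested.

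The other 3 contrasts set deletions with a shared base against those without one. Their balance was higher by 4.54 and 2.94 at Site 7 and lower at Site 9 (-0.848 and -3.98), so that Site 9 minus Site 7 was -6.15. The one-sided share was lower at Site 7 (-13.1 and -8.83 points) and higher at Site 9 (7.84 and 10.9), 20.3 points apart. The share of aligned reads was lower with a shared base at Site 7 (-0.203 and -0.345 points) and higher at Site 9 (0.765 and 0.864), 1.09 points apart. This last contrast restates the shared-base share of the class, 46.8% at Site 7 and 60.7% at Site 9, and is not a separate result. These differences between the sites were not tested either.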

How the results depend on the processing

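Of 153 alternative values for 12 results, 136 kept their direction and 17 reversed. No test could pass the threshold under any setting. The share of aligned reads (Site 9 minus Site 7) turned to 1.75 as a percent of modified reads. The share among deletions of 20 bp or more turned to 1.73 from 30 bp, 1.47 with the cut 1 bp further from the PAM and 1.30 when a base had to be lost on both sides. From 30 bp, the site difference in balance turned to -1.10 and that in the one-sided share to 2.42. Balance against deletions with 2 bp or more of microhomology turned to 2.09 for distinct deletions counted once, 1.44 from 30 bp, 0.564 in the rightmost placement, 1.13 with the shifted cut and 2.06 with loss on both sides. Balance against 3 to 19 bp turned to -2.16 with the shifted cut and -1.005 with loss on both sides. The causes were not tested.

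Leaving out each library in turn gave -1.003 to 0.147 for the share of aligned reads, where only the value without Site 7 replicate 2 was above 0, and -2.54 to 0.926 for the share among deletions of 20 bp or more, above 0 without Site 9 replicate 2. It gave 4.49 to 7.42 for balance and -17.5 to -6.21 for the one-sided share between sites, -1.78 to -0.161 bp for length, 13.3 to 14.5 points for the shared base, -5.45 to -1.88 bp for PAM-distal minus PAM-side reach and -5.77 to -2.52 bp for higher minus lower. Balance ranged from -3.26 to 2.99 against longer microhomology and from 4.08 to 5.01 against 3 to 19 bp.

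The labels number the replicates alike at both sites, but deviations of libraries with the same number correlated at -0.342, so the numbers were not taken to pair them. With the replicate block the differences kept their values (-0.428 for the share of aligned reads, 5.96 for balance), with exact p of 0.5 to 1, the smallest possible being 0.5. A crossed pairing, chosen after seeing the data, left 0 calls as well.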
